A study of Drosophila melanogaster with 6 samples.

Results

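The genes described here are 8 core genes of the *Drosophila melanogaster* circadian clock, namely *period* (*per*), *timeless* (*tim*), *Clock* (*Clk*), *cycle* (*cyc*), *vrille* (*vri*), *PAR-domain protein 1* (*Pdp1*), *cryptochrome* (*cry*) and *clockwork orange* (*cwo*). They were taken by name from the 17489 genes of the count tables, and all 8 were found and tested. Labelled as *Gr5a* sensory neurons, the libraries came from heads of male flies of the genotype *Gr5a:Pclc429>UAS-Rpl3-3XFLAG*, in which *Gr5a-GAL4*, a driver active in the sweet-sensing taste neurons, expresses a FLAG-tagged ribosomal protein used to pull down translating mRNA. Every fly in both groups carried the *Pclc429* mutation in *Polycomblike*, an accessory factor of Polycomb Repressive Complex PRC2.1. From day 5 to day 12 of age the flies ate either a control diet with 5% sucrose (3 libraries) or a sugar diet with 30% sucrose (3 libraries), and each library was a pool of 300 heads. The hour of the day at which heads were collected is not given in the sources used here, and libraries of flies without the mutation were not analysed here.

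In the fly clock, the transcription factors CLK and CYC pair and switch on *per*, *tim*, *vri*, *Pdp1* and *cwo* through E-box elements, and the PER and TIM proteins later enter the nucleus and block CLK and CYC. In a second loop VRI represses *Clk*, while PDP1 activates it. In heads kept in a light-dark cycle, mRNAs of *per*, *tim* and *vri* are high around dusk and early night, and mRNAs of *Clk* and *cry* are high around dawn, so the ratio of an evening gene to a morning gene within a single library changes with the hour of collection. Much of the clock gene mRNA of a head comes from the photoreceptor cells of the eye, with further contributions from glia, fat body and a small set of brain clock neurons.

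Sense-strand counts totalled 12617127 to 24076315 per library, with control diet replicate 2 the shallowest. The 5 markers of the sweet taste neurons were close to the floor, with a summed level of 21.1 to 45.3 normalized counts in control diet libraries and 9.30 to 46.9 in sugar diet libraries, and *Gr5a* itself was at 0 in control diet replicate 2. The 12 photoreceptor markers summed to 706646 to 821007 and 565608 to 708518 normalized counts, so the clock gene values stand among abundant eye mRNA and cannot be assigned to the *Gr5a* neurons. Of the photoreceptor markers 10 had a negative log2 fold change on the sugar diet, although none was called by DESeq2 or by edgeR (5 had an unadjusted DESeq2 p under 0.05). Of 8 glial markers, *alrm* of astrocytes was the only one called (log2 fold change −0.41, DESeq2 q = 0.0264), and none of 4 tested fat body, 5 neuronal or 4 muscle markers was called. A further fat body marker, the storage protein gene *Lsp2*, split the libraries within both diets, with 10962, 10069.7 and 84.6 normalized counts in control libraries 1 to 3 and 10702, 49.7 and 38.7 in sugar libraries 1 to 3. DESeq2 gave it no p-value and edgeR did not call it (q = 0.875). The fat body markers together summed to 160668 to 210252 and 128550 to 199968 normalized counts, and their part in the clock gene values was not tested. Of 8 genes of the testis and male accessory gland, 7 were called higher on the sugar diet by DESeq2 and 6 by edgeR. In DESeq2 the log2 fold changes of the 7 ran from 3.53 for *aly* to 9.22 for *Acp26Aa*. *Mst84Db*, for example, averaged 3.49 normalized counts under control feeding and 432 under sugar feeding. The remaining gene, *bol*, averaged 8761 and 8449 (log2 fold change −0.05) and was not called. Whether the mRNA of the 7 genes came from cells of the head was not tested. In pooled heads, a change in the number of cells of a type and a change in mRNA per cell cannot be told apart.

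Across the whole table, 2067 of 14254 genes (14.5%) differed between the diets at an adjusted p-value (q) under 0.1 in DESeq2, and 1600 of 11471 (13.9%) in edgeR. In DESeq2, 14% of genes were higher and 0.54% lower on the sugar diet. None of the 8 clock genes did. None had an unadjusted p under 0.05 in DESeq2, and edgeR also called 0 of them, with a lowest edgeR q of 0.369. Their fitted log2 fold changes, sugar diet over control diet, lay between −0.11 and 0.17 with a median of 0.02, beside a median of 0.02 over all tested genes and of −0.04 over those averaging 100 or more normalized counts. Regardless of sign, the median size was 0.07 for the clock genes, 0.19 over all tested genes and 0.11 over those well-counted genes. The share called among well-counted genes alone was not computed, so the 14.5% and 13.9% are not matched to the clock genes by count. All 8 passed a second test that asks whether a change of 1.5-fold or more in either direction can be rejected, with a largest q of 0.0058 (normal test on the DESeq2 standard error). The same was true of 40.6% of all genes with a standard error and of 83% of the genes averaging 100 or more normalized counts, the range in which all 8 clock genes lie. The clock genes therefore share this result with most well-counted genes.

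**Figure D1:**
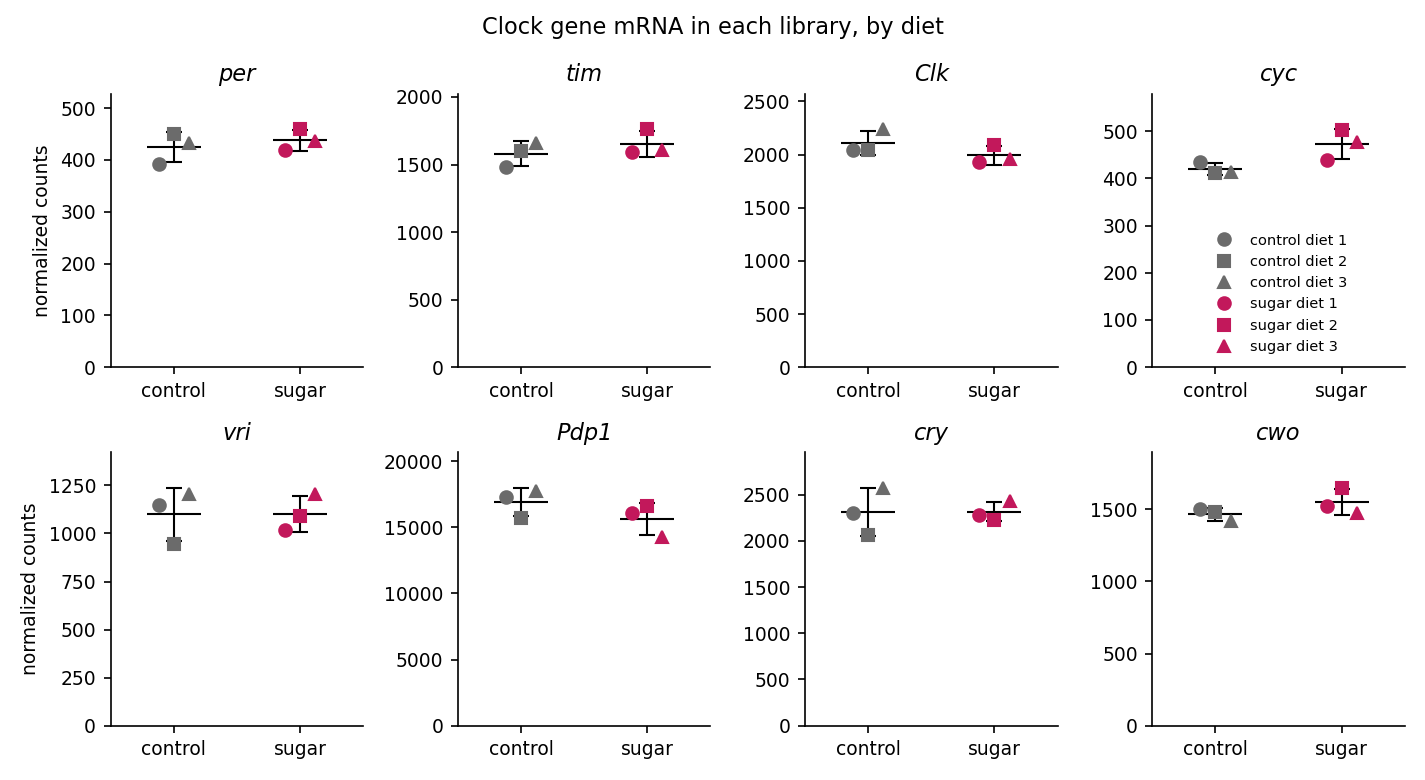
Normalized counts (y axis, from 0) of each clock gene in the 3 control diet and 3 sugar diet libraries (points, 1 shape per replicate number), with the mean and SD of each diet in black. The diets overlap in every panel except *cyc*, whose sugar diet libraries lie between 439.7 and 502 and whose control diet libraries lie between 411 and 434.

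Levels were first compared per length, as normalized counts per kilobase of exon. *Pdp1* and *cry* were the most abundant, at 1342 ± 103 and 1221 ± 92 (SD over all 6 libraries), above 94.6% of tested genes. *Clk* followed at 454 ± 25, then *cwo* at 296 ± 15, *cyc* at 275 ± 22, *vri* at 232 ± 22, *tim* at 229.7 ± 13.1 and *per* at 95.3 ± 5.3. *Pdp1* and *cry* overlapped across libraries, as did each neighbouring pair from *cwo* down to *tim*. The steps from *cry* to *Clk* (2.69-fold), from *Clk* to *cwo* (1.53-fold) and from *tim* to *per* (2.41-fold) were larger than the spread between libraries. *cyc* mRNA was thus lower per length than that of its partner *Clk*, and *per* was the scarcest of the set in all 6 libraries. With the length of the longest transcript in place of all exons, *Pdp1* was at 2376, *tim* at 273 and *vri* at 271. *Pdp1* has 13 annotated transcripts that differ in exon content, and a count per gene cannot tell the cycling forms from the others. Of the 1896 exon bases of *cry*, 329 are shared with *lncRNA:CR46393* on the same strand, where a count per gene leaves out reads that fall in both, and *tim* shares 151 exon bases with a small nucleolar RNA.

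**Figure D2:**
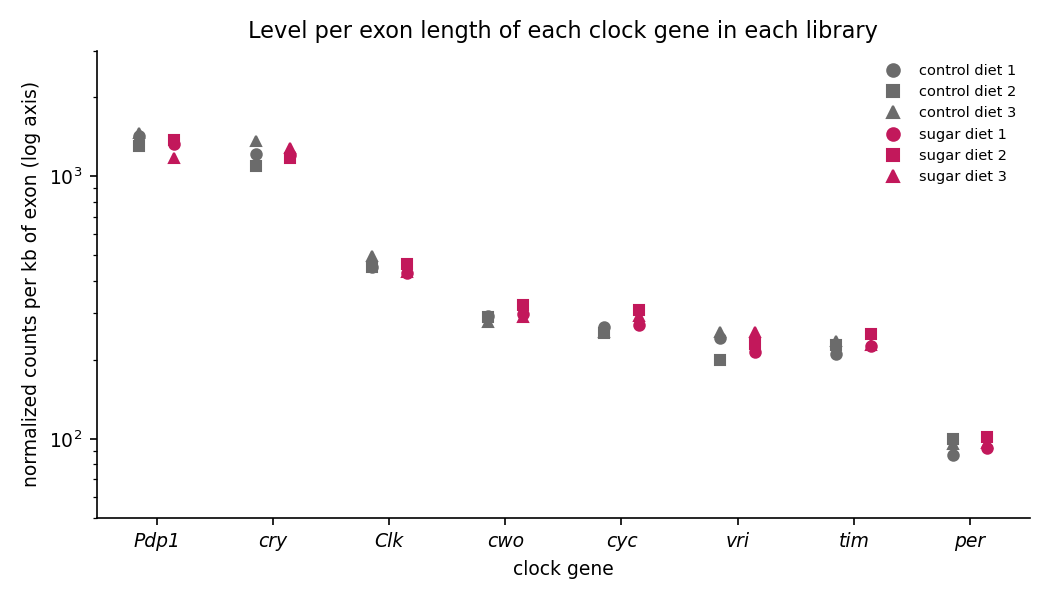
Normalized counts per kilobase of exon (log axis) for the 8 clock genes in order of their mean, with control diet libraries in grey and sugar diet libraries in red. *Pdp1* and *cry* stand highest at 1342 and 1221, and *per* lowest at 95.3, and for each gene the points of the 6 libraries lie close together.

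Among the activators, *Clk* (FBgn0023076, dm6 chromosome 3L, 7763233 to 7775603, minus strand) encodes the bHLH-PAS factor that gives the clock its positive arm. It had 2042, 2038 and 2238 normalized counts under control feeding (libraries 1 to 3, the order kept for all values) against 1926, 2094 and 1954 under sugar feeding. The sugar diet libraries were on average lower, but sugar diet replicate 2 lay above control diet replicates 1 and 2. The means were 2106 ± 114 and 1991 ± 90 (SD, n = 3 each), a log2 difference of −0.08 (SE 0.10, DESeq2 q = 0.845), and the 95% interval ran from 0.828-fold to 1.08-fold.

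*cyc* (FBgn0023094, chromosome 3L, 19813770 to 19815938, minus strand) encodes the partner of CLK and, unlike the other members, is known for a steady mRNA level through the day. Its values were 434, 411 and 413 normalized counts under control feeding against 439.7, 502 and 477 under sugar feeding. It was the only member whose diets did not overlap, every sugar diet library being above every control diet library, a pattern found in 26.6% of all tested genes. The means were 419.7 ± 12.7 and 473 ± 32 (SD, n = 3 each). The log2 fold change of 0.17 ± 0.14 (SE, DESeq2 q = 0.67) was the largest of the 8 and did not pass the test, with a 95% interval from 0.932-fold to 1.36-fold.

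Among the targets and repressors, *per* and *tim* encode the proteins whose complex shuts off CLK and CYC. *per* (FBgn0003068, chromosome X, 2685580 to 2692780, plus strand) was counted at 392, 451 and 432 under control feeding and at 418, 459 and 436 under sugar feeding, in normalized counts. *tim* (FBgn0014396, chromosome 2L, 3493986 to 3508119, minus strand) had 1481, 1601 and 1660.5 under control feeding against 1592, 1761 and 1607 under sugar feeding. Both genes were lowest in control diet replicate 1 and highest in sugar diet replicate 2, and the diets overlapped for both. The diet means of *per* were 425 ± 30 and 438 ± 21 (SD, n = 3 each), a log2 difference of 0.05 (SE 0.14, DESeq2 q = 0.968). Those of *tim* were 1581 ± 91 and 1653 ± 94, a log2 difference of 0.07 (SE 0.10, DESeq2 q = 0.91). The 95% intervals reached from 0.851-fold to 1.25-fold for *per* and from 0.908-fold to 1.21-fold for *tim*. The ratio of *tim* to *per* varied by 1.08-fold over the 6 libraries.

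*vri* (FBgn0016076, chromosome 2L, 5288944 to 5311223, plus strand), the bZIP repressor of *Clk*, had 1151, 944 and 1206 normalized counts under control feeding against 1018, 1088 and 1204 under sugar feeding. It varied most within a diet of the 8 genes, and control diet replicate 2 was the lowest library while control diet replicate 3 and sugar diet replicate 3 were nearly equal. The diet means were 1100.0 ± 138 and 1103 ± 94 (SD, n = 3 each), a log2 difference of 0.0016 (SE 0.13, DESeq2 q = 0.999). The sign turned to −0.099 without control diet replicate 2 and to −0.063 without sugar diet replicate 3.

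*Pdp1* (FBgn0016694, chromosome 3L, 7811458 to 7867369, minus strand), the bZIP activator of *Clk*, had 17292, 15736 and 17772 normalized counts under control feeding against 16048, 16621 and 14256 under sugar feeding. Sugar diet replicate 3 was the lowest, and control diet replicate 2 lay below the other sugar diet libraries. The means of 16933 ± 1065 and 15641 ± 1234 (SD, n = 3 each) gave a log2 difference of −0.11 (SE 0.10, DESeq2 q = 0.699). *cwo* (FBgn0259938, chromosome 3R, 10388258 to 10400752, plus strand), a bHLH-Orange repressor that binds E-boxes alongside CLK and CYC, had 1499, 1482 and 1416 normalized counts under control feeding against 1526, 1649.9 and 1474 under sugar feeding. Only sugar diet replicate 3 fell within the control diet range. Its means were 1466 ± 44 and 1549.8 ± 90.4 (SD, n = 3 each), a log2 difference of 0.08 (SE 0.10, DESeq2 q = 0.855).

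The light input gene *cry* (FBgn0025680, chromosome 3R, 19212154 to 19215442, plus strand) encodes the blue-light receptor that triggers loss of TIM. It had 2303, 2064 and 2577 normalized counts under control feeding against 2284, 2230.2 and 2432 under sugar feeding. Both the lowest and the highest library were on the control diet, and the sugar diet libraries lay between them. Its means of 2315 ± 257 and 2315 ± 104 (SD, n = 3 each) gave a log2 difference of −0.00079 (SE 0.11, DESeq2 q = 0.999), a sign that turned under most other settings.

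**Figure D3:**
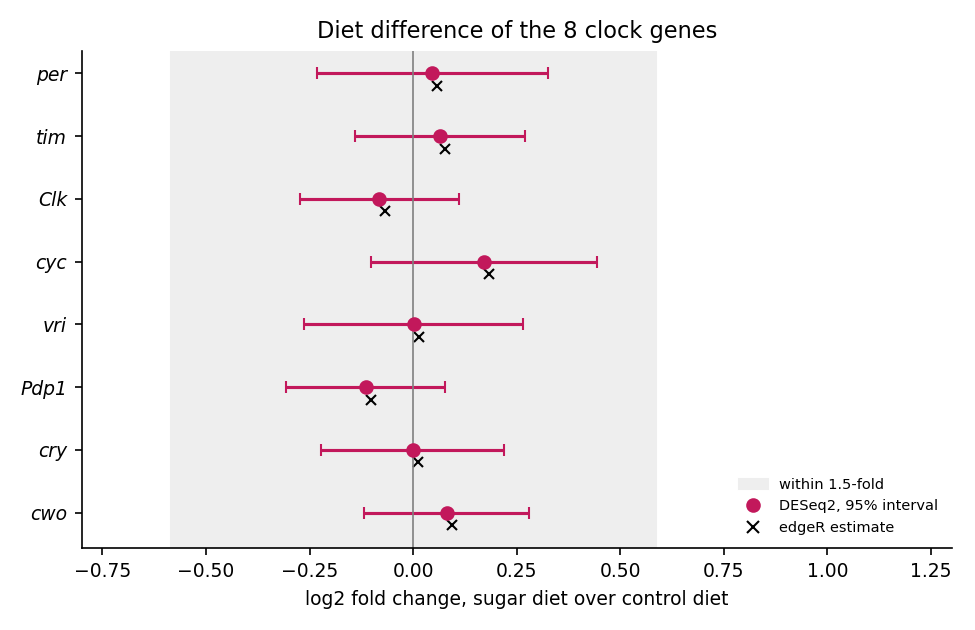
Log2 fold change of each clock gene, sugar diet over control diet (x axis), with its 95% interval from DESeq2 (red) and the edgeR estimate (cross), and the range within 1.5-fold shaded. All 8 intervals include 0 and lie inside the shaded range, from 0.809-fold at the low end of *Pdp1* to 1.36-fold at the high end of *cyc*.

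Libraries of the same diet were also alike in these genes. The highest library exceeded the lowest, over both diets, by 1.16-fold for *Clk* to 1.28-fold for *vri*. The within-diet SD on the log2 scale ranged from 0.066 for *cwo* to 0.158 for *vri* with a median of 0.085, beside a median of 0.136 and quartiles of 0.093 and 0.206 over 7748 tested genes averaging 100 or more normalized counts. Of the 8 genes 7 lay below that median. The comparison genes were not matched to the clock genes by count, so a low spread particular to clock genes was not tested. The spread of *per* and *cyc* was 1.57 and 1.33 times the variance expected from counting alone, so that these low-count members were near the limit set by depth, whereas that of *Pdp1* was 76.2 times.

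To compare the phase of the clock between libraries, evening genes were set against morning genes within each library, a measure in which library size cancels. An index was taken as the mean log2 level of *per*, *tim* and *vri* minus that of *Clk* and *cry*. It was −1.31, −1.22 and −1.33 under control feeding against −1.25, −1.17 and −1.21 under sugar feeding. Control diet replicate 2 lay among the sugar diet libraries, and the other control diet libraries lay below them. The mean was −1.29 ± 0.06 under control feeding against −1.21 ± 0.04 under sugar feeding (n = 3 each, SD), a difference of 0.08 or 1.05-fold, and all 6 libraries together spanned 1.12-fold. No p-value is given for a score over genes chosen with earlier results known. Without control diet replicate 2 the difference was 0.11, and without sugar diet replicate 1 it was 0.099. Only these libraries overlapped between the diets, so leaving out either one had to separate the diets. With *tim* and *per* set against *Clk* alone, the difference was 0.13 and the diets did not overlap. The values were −1.42, −1.26 and −1.40 under control feeding against −1.24, −1.22 and −1.22 under sugar feeding. This variant holds *tim* and *Clk*, whose ratio alone separated the diets.

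Of the 6 ratios of an evening gene to a morning gene, 5 overlapped between the diets. The exception was the ratio of *tim* to *Clk*, which was 0.725, 0.786 and 0.742 under control feeding against 0.826, 0.841 and 0.823 under sugar feeding. Every sugar diet library was thus above every control diet library, by 1.11-fold on average, and the log2 difference stayed between 0.12 and 0.18 when any library was left out. Of 7747 genes averaging 100 or more normalized counts, 13.6% had a ratio to *Clk* that separated the diets in the same way, and 9.27% a ratio to *cry*. The ratio of *per* to *Clk* was 0.192, 0.221 and 0.193 under control feeding against 0.217, 0.219 and 0.223 under sugar feeding. Here control diet replicate 2 was within the sugar diet range and the other control diet libraries were below it. The ratio of *vri* to *Clk* was 0.564, 0.463 and 0.539 against 0.528, 0.52 and 0.616, and it covered the widest range of the 6 ratios, 1.33-fold.

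The ratios to *cry* showed less difference between diets. That of *tim* to *cry* was 0.643, 0.776 and 0.644 under control feeding against 0.697, 0.79 and 0.661 under sugar feeding, with replicate 2 of each diet the highest. That of *per* to *cry* was highest in control diet replicate 2, at 0.218, and lowest in control diet replicate 3, at 0.168. That of *vri* to *cry* differed by 0.0034 on the log2 scale between the diet means and varied by 1.12-fold in all. The average log2 difference, sugar diet minus control diet, was positive in all 6 ratios, which share genes, and for the 3 ratios to *cry* its sign turned when single libraries were left out. *vri* and *cry*, of opposite phase, were both lowest in control diet replicate 2 and both highest in control diet replicate 3.

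**Figure D4:**
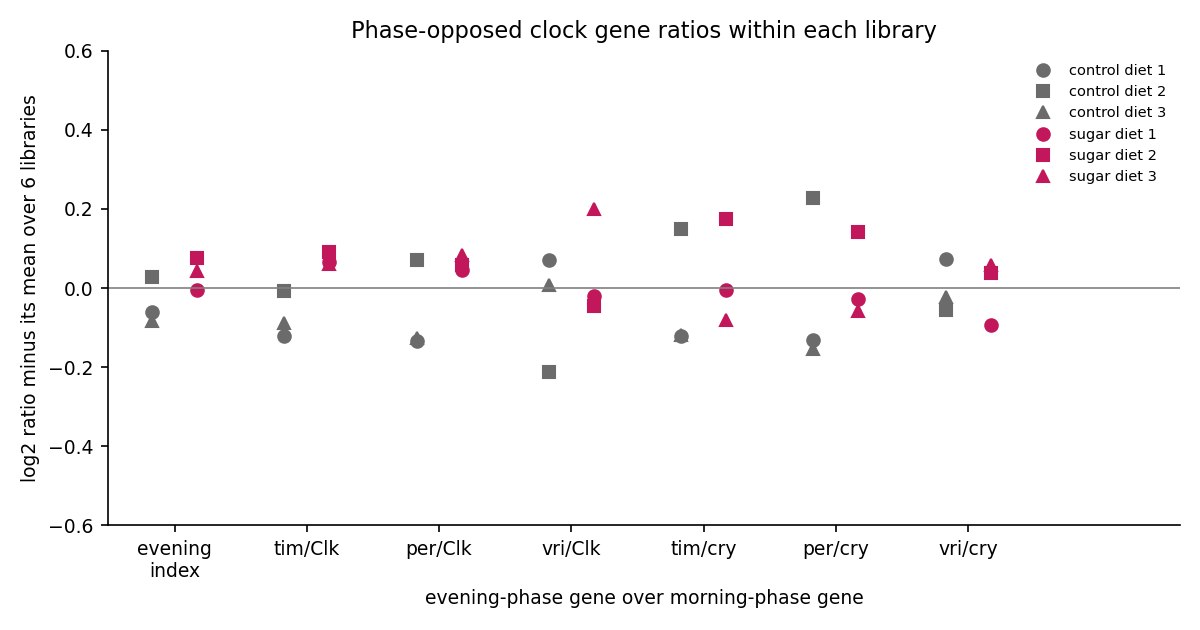
Log2 ratio of evening-phase to morning-phase clock genes in each library, after subtracting the mean of that ratio over the 6 libraries (y axis), for the index of all 5 genes and for each of 6 gene pairs. Control diet libraries (grey) and sugar diet libraries (red) overlap in every column except *tim*/*Clk*, where the sugar diet mean is 1.11-fold above the control diet mean.

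Over all 28 pairs of members, 5 ratios did not overlap between the diets, a share near the 16.8% found over all pairs of genes averaging 100 or more normalized counts. Besides *tim* and *Clk*, these were *Clk* and *cyc*, *Clk* and *cwo*, *cyc* and *Pdp1*, and *Pdp1* and *cwo*. The ratio of *Clk* to *cyc*, the partners of the activator, had a log2 value of 2.23, 2.30 and 2.43 under control feeding against 2.13, 2.06 and 2.03 under sugar feeding. It was 0.841 times as high on the sugar diet. In each of the 5 pairs, a gene with a negative fitted fold change (*Clk* or *Pdp1*) stood against a gene with a positive one (*tim*, *cyc* or *cwo*). Such opposite signs are favoured by the choice of pairs whose ratio separates the diets.

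Other genes of the clock pathway were read from 4 lists. Of 39 genes tested in these lists, 0 were called by DESeq2 at q under 0.1 and 0 by edgeR. Over all genes, at any count level, the shares were 14.5% and 13.9%, and no share was computed for genes of like count. Of the 39, 3 had an unadjusted DESeq2 p under 0.05. The 1.5-fold test was passed by 36, the exceptions being *Fer2*, *Ugt35B1* and *CCHa1*. The median log2 fold change was −0.10 and 34 of the 39 were negative, while 62.2% of all genes averaging 100 or more normalized counts were negative.

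Among 11 kinases, phosphatases and degradation factors that set the stability of PER, TIM and CLK, the log2 fold changes ran from −0.17 to 0.24. The most abundant were *wdb*, a regulatory subunit of protein phosphatase PP2A, with 15336 ± 1238 and 14175 ± 1102 normalized counts (SD, n = 3 each) and *sgg*, the GSK3 kinase that phosphorylates TIM, with 13227 ± 575 and 12440.2 ± 974. Neither was called (DESeq2 q = 0.725 and 0.8). *slmb*, whose identifier was not matched, was not analysed here.

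Among 12 light input genes and other clock regulators, the most abundant were *norpA*, the phospholipase C of phototransduction, with a log2 difference of −0.16 (SE 0.09, DESeq2 q = 0.375), and *nocte*, which is needed for temperature entrainment, with −0.03 (SE 0.08, DESeq2 q = 0.962). Among 8 genes with rhythmic output in heads, the most abundant were *trpl*, a light-activated channel, at −0.19 (SE 0.10, DESeq2 q = 0.274), and *Pdh*, a retinoid dehydrogenase, at −0.12 (SE 0.10, DESeq2 q = 0.692). *trpl* and *norpA* also belong to the photoreceptor markers, which had mostly negative fold changes, as did the glial, neuronal, fat body and muscle markers. The part of photoreceptor cells in these values was not tested. *Cyp6a21* was not analysed here.

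Among 8 peptides and receptors of clock neurons, *ITP*, the ion transport peptide, had a log2 difference of −0.23 (SE 0.12, DESeq2 q = 0.291) and *sNPF*, the short neuropeptide F precursor, one of 0.02 (SE 0.11, DESeq2 q = 0.985). Leaving out sugar diet replicate 1 brought 6 genes of the 4 lists under the threshold, *Cul3*, *kay*, *lark*, *Pdh* (DESeq2 q = 0.0667), *Ugt35B1* and *ITP* (DESeq2 q = 0.0414), and leaving out sugar diet replicate 2 brought *trpl* under it (DESeq2 q = 0.0591). Over the whole table, the fits without sugar diet replicate 1 and without sugar diet replicate 2 called 2532 and 1795 genes, beside 2067 with all 6 libraries. With all 6 libraries, *Cul3* (0.24) and *lark* (0.28) had positive log2 fold changes and the others of these named genes negative ones. The clock genes stayed at 0 calls without any of the 6 libraries.

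**Figure D5:**
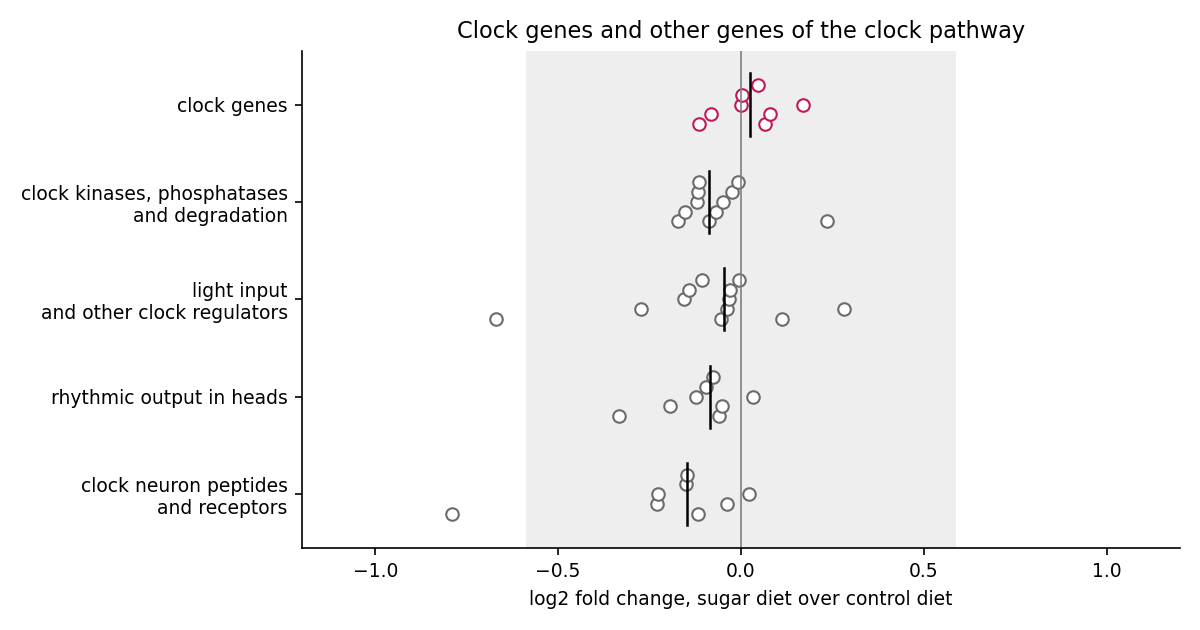
Log2 fold change, sugar diet over control diet (x axis), of the 8 clock genes (red rings) and of the tested genes in 4 lists of the clock pathway (grey rings, 1 per gene), with the median of each set as a black line and the range within 1.5-fold shaded. No ring is filled, since 0 genes of any set were called at q under 0.1, and 2 rings, *Fer2* and *CCHa1*, lie outside the shaded range.

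Counts on the strand opposite to each clock gene were low, between 0.202% of the stranded counts for *Pdp1* and 1.76% for *per*. Exons of *per* overlap those of *dyw* on the other strand by 49 bases. Those of *tim* overlap *lncRNA:CR46495* on the other strand by 545 bases, with a share of 0.673%. For *vri*, with no such overlap, the share was 1.49%. A DESeq2 fit to the opposite-strand counts of all genes called 40 of 11685 (0.342%) and 0 of the 8 members, whose lowest unadjusted p was 0.272. For *Clk* these raw counts were 18, 26 and 12 under control feeding against 22, 19 and 0 under sugar feeding.

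Finally, the genes whose profile over the 6 libraries was most like that of a clock gene were listed among 7740 genes averaging 100 or more normalized counts. Closest to *tim* were *pasha*, *MsR2* and *CG5098*, with Pearson r of 0.988, 0.988 and 0.976. Among the closest to *Clk* were *Ccz1* and *wdb*, with r of 0.995 and 0.991. These genes were picked for the match, and the values describe 6 libraries from 2 diets. None of these 5 genes was called between the diets, with fitted log2 fold changes from −0.11 for *wdb* to 0.30 for *MsR2*.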

How the data were processed

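Ribosome-associated RNA was described in the labels for 6 libraries, 3 per diet, and which fraction of the lysate each library holds is not stated. The authors discarded reads of quality below 30, aligned with STAR to dm6 and deposited raw counts per gene in 3 columns (unstranded, sense, opposite strand). HTSeq is also named, and the STAR version and annotation release are not given in the sources used here. Sense counts were used, 97.0% to 97.3% of stranded counts. Reads assigned to no gene, 40.9% to 47.3% per library, were left out. Symbols matched 17215 of 17489 identifiers, and coordinates are from Ensembl release 115 (dm6), whose release may differ from that used for counting.

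Diets were compared as in the study with the DESeq2 1.42.0 Wald test (R 4.3.3, q under 0.1, Benjamini-Hochberg over all genes, no block), with edgeR 4.0.16 quasi-likelihood as the first alternative. On simulated counts the share of false calls was well above the nominal level with DESeq2 and close to it with edgeR, so the number of genes called by DESeq2 may be too high. The spread of each simulated gene was taken from its 3 libraries per diet, and it may differ from the true spread. Equivalence used a 1.5-fold margin. The equivalence test and the intervals of the fold changes rest on the same DESeq2 standard errors. If these are too small, the equivalence q values are too low and the intervals too narrow, which was not tested. Normalized counts are counts divided by DESeq2 size factors, and log2 levels used a pseudocount of 1. Other settings were TMM factors, size factors from genes with a mean count of at least 100, a filter of 10 counts in 3 libraries, unstranded counts, a replicate block, a 2-fold margin and leaving out each library. Libraries of 1 diet differed by a chi-square per degree of freedom of 14.8 to 43.7 and were kept as separate replicates. Replicates are described as biological, each from its own pool of heads. All 8 members are named, and of each pathway list the called genes or, with none, the 2 of highest mean count. Other list genes were named after their values were seen. Members and lists were chosen with earlier results of these data known. Of the 3 genes closest to *Clk* in profile, 1 is not reported here. Promoter sequences were not analysed here.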

Additional observations from a re-analysis of the deposited data

How the results depend on the processing

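None of the 8 clock genes was called, and all 8 passed the equivalence test, under every alternative run, the replicate block and the 6 fits without 1 library included. edgeR was not among the alternatives for the equivalence test, so every version of that test used DESeq2 standard errors. The lowest q of any member was 0.369, with edgeR, and the largest log2 fold change was 0.22 in size. Of 104 member values under alternatives, 13 changed sign, at log2 fold changes between −0.099 for *vri* and 0.070 for *cry*. The cause was not tested. *cry* turned to 0.012 with edgeR, 0.0056 with TMM factors, 0.034 with size factors from well-counted genes, 0.0026 with the count filter and, with the replicate block, 0.0046 (DESeq2) and 0.017 (edgeR), and *vri* to −0.0091 on unstranded counts. Without 1 library, *per* ranged from −0.014 to 0.085, *vri* from −0.099 to 0.059, *cry* from −0.079 to 0.070, *nocte* from −0.070 to 0.012 and *sNPF* from −0.034 to 0.081. *nocte* was 0.0033 with size factors from well-counted genes. The evening minus morning index differed between diets by 0.13, with no overlap, when *tim* and *per* were set against *Clk* alone, and by 0.054 to 0.11 without 1 library.

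The edgeR fit with a block was added after seeing the data. Genes called over the whole table numbered 1443 to 2532 without 1 library. With the replicate number as a block, DESeq2 called 1842 genes and edgeR 1646, and 2 genes (*kay* and *trpl*) and 1 gene (*kay*) of the 4 pathway lists, in place of 0. Without 1 library these lists gave 0 to 6 calls. Same-numbered libraries deviated from their diet means with correlations of 0.03, −0.04 and −0.10, over genes averaging 10 or more normalized counts. No pairing by number was seen over these genes together. A pairing that affects few genes could not be seen in this way. At 272 to 22136 counts per member and library, depth limited the precision of *per* and *cyc* most.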
